A study of Homo sapiens with 96 samples.

Results

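The 8 genes that encode the subunits of human condensin I and condensin II were followed through 96 RNA-seq libraries of A549, a human lung adenocarcinoma cell line. They were taken by symbol (SMC2, SMC4, NCAPD2, NCAPG, NCAPH, NCAPD3, NCAPG2 and NCAPH2) from a count table of 60675 genes. All 8 were found once and passed the filter on low counts in both batches, with 344 to 10954 counts per library.

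The first batch held cells given an ethanol extract or a water extract of Paeoniae Radix, the peony root of East Asian medicine, at 20, 100 or 500 µg/mL, and cells given vehicle. The second batch held cells given albiflorin, benzoic acid, catechin, gallic acid, hederagenin, oleanolic acid, paeoniflorin or paeonol at 0.4, 2 or 10 µM, and cells given a vehicle of its own. Each of the 32 groups had 3 libraries, which makes 21 libraries with the extracts and 75 with the ingredients, vehicles included, and the labels do not say that these came from separate cultures, so each p-value rests on a spread between libraries that may be technical. The sources used here give neither the kind of vehicle nor the length of exposure. All groups are of this one line. In both batches the vehicle libraries have a leading digit of the library number that no treated library has. A difference from vehicle therefore cannot be told apart from a difference between these sets of libraries. Comparisons between extract groups stay within the same digit. Aurora B signalling is the subject the series names for itself.

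Condensins are ring-shaped ATPase complexes that fold chromatin into the compact rods of mitotic chromosomes. Both share the SMC2 and SMC4 arms. Condensin I adds the kleisin NCAPH, which closes the ring, and the HEAT-repeat subunits NCAPD2 and NCAPG, and it reaches chromosomes after the nuclear envelope has broken down. Condensin II adds the kleisin NCAPH2 and the HEAT-repeat subunits NCAPD3 and NCAPG2, stays in the nucleus through interphase and acts from prophase. Aurora B, together with CDK1 and PLK1, is one of the kinases known to act on condensin in mitosis. Transcripts of several subunits are known to peak in late cell cycle phases, and in bulk RNA fewer cells of a type and less RNA per cell cannot be told apart.

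In units of a mega-count (M), totals were 17.9 to 28.1 M counts per library in the first batch and 15.7 to 35.6 M in the second. The summed level of 8 A549 and epithelial markers was 11189 to 18383 CPM (counts per M counts of the library, with totals scaled by edgeR's TMM factors) in the first batch and 21333 to 34976 CPM in the second. CDKN2A, which A549 has lost, was at 0 in the first batch and at most 0.130 CPM in the second. Blood and endothelial marker sums stayed under 1 CPM. In the second batch 16 libraries had under 5% of their counts on mitochondrially encoded genes, and 4 libraries held 485 to 606 CPM of COL1A2, a fibroblast collagen that was at most 0.843 CPM in every other library. These 18 libraries (2 show both) stand apart, and calls in the second batch are given with and without them.

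In vehicle cells the shared and condensin I arms were the more abundant transcripts per kilobase of merged exon (GENCODE v29). NCAPD2 had 49.4 CPM per kb in the first batch's vehicle, SMC4 34.2, SMC2 19.6, NCAPH 19.5 and NCAPG 12.9 CPM per kb. The condensin II subunits had 11.7 (NCAPG2), 7.23 (NCAPD3) and 5.67 (NCAPH2) CPM per kb. The second batch's vehicle gave 52.3 CPM per kb for NCAPD2 and 7.93 for NCAPH2 at the ends of the order, and within it NCAPG2 (13.2 CPM per kb) lay above NCAPG (12.03), whereas NCAPG was the higher of these in the first batch.

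The genes lie on different chromosomes of GRCh38, SMC2 at chr9:104094260-104141417, SMC4 at chr3:160399274-160434962, NCAPD2 at chr12:6493356-6531955, NCAPG at chr4:17810902-17844862, NCAPH at chr2:96335787-96373845 and NCAPH2 at chr22:50508216-50523472 on the forward strand, and NCAPD3 at chr11:134150119-134225454 and NCAPG2 at chr7:158631311-158704829 on the reverse strand. The deposited counts of SMC2, NCAPH, NCAPG2 and NCAPH2 were whole numbers (within 0.005) in every library. Those of SMC4 and NCAPG were whole in none, and those of NCAPD2 and NCAPD3 in 1.04% and 3.12% of libraries. Part of the reads of these 4 genes was thus divided with other features, and their levels are uncertain to that extent. Protein-coding genes on the opposite strand overlap SMC4 (IFT80, TRIM59 and AC079594.2), NCAPD2 (MRPL51), NCAPG (LCORL) and NCAPD3 (JAM3 and VPS26B). On the same strand MIR15B and MIR16-2 overlap SMC4, and SCARNA10 and AC006064.5 overlap NCAPD2. No source used here says if strand entered the counting.

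RefSeq promoter windows (GRCh38.p14, 250 bases before to 50 after a start) were at hand for 7 of the 8 genes, in 10 windows; NCAPH2 is named only. They are shown as a description, and the cell cycle homology region (CHR) is the promoter element best known from late cell cycle genes. Its part in the changes given below was not tested. The CHR letters TTTGAA, searched on both strands, were in a window of 6 of the 7 genes (all but NCAPH), and 15.2% of all 35116 windows, or 18.2% of 27305 genes, hold them. The match began 145 bases before the start in NCAPD2, 75 in SMC4, 35 in NCAPG, 3 in SMC2 and 3 in NCAPD3, and at base 36 after it in NCAPG2. In the gene-strand sequences below, from chr9:104094294-104094318 (SMC2), chr3:160399563-160399592 (SMC4), chr12:6493945-6493974 (NCAPD2), chr4:17810932-17810961 (NCAPG) and, on the reverse strand, chr11:134223958-134223982 (NCAPD3), capitals mark the match, which in SMC2 and SMC4 is on the opposite strand and so reads TTCAAA.
SMC2: ctcgcgccgaaaTTCAAAggaataa
SMC4: gccgcactttttTTCAAAttagtggatccc
NCAPD2: cagccgttgagaTTTGAActcggtatttgt
NCAPG: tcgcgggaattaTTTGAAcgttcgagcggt
NCAPD3: gcgggagcgagcTTTGAAagttgag
CCAAT, the core of the box bound by NF-Y, was in the windows of 3 of the 7 genes (NCAPD2, NCAPH and NCAPD3), against 34.6% of all windows and 39.7% of all genes. Of 4 spellings of the E2F site, TTTCCCGC was found in NCAPD3 alone (1.63% of all windows, 1.98% of genes), and TTTGGCGC (0.652% of windows, 0.795% of genes), TTTCGCGC (0.515% and 0.63%) and TTTGGCGG (0.652% and 0.809%) in none. Letters that match are a description of these windows and do not show that a factor binds there.

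The first question was what each extract did to the subunits at each dose. At 500 µg/mL of the ethanol extract 7 of the 8 subunits fell, from SMC4, at 0.458 times its vehicle level, to NCAPD2, at 0.832 times. NCAPH2, the kleisin of condensin II, was at 1.26 times its vehicle level, with means of 22.5 and 17.9 CPM. It also averaged 21.9 CPM with 100 µg/mL of the ethanol extract and 21.3 CPM with 500 µg/mL of the water extract. Its vehicle mean was the lowest of the 7 groups. The background is broad at 500 µg/mL of the ethanol extract, since 34.4% of the 16854 genes tested fell and 69.1% changed in either direction. The count of subunits called is read against that.

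SMC4, the arm that pairs with SMC2 in both complexes, had 128.5, 137.4 and 131 CPM in the 3 libraries with 500 µg/mL of the ethanol extract, against 295.8, 293.7 and 277.7 CPM in the vehicle libraries. SMC2 had 80.96, 85.2 and 83.8 CPM in the extract libraries, against 124.2, 134.2 and 122.6 CPM in the vehicle libraries. For both arms every extract library lay below every vehicle library. The log2 change was -1.13 ± 0.04 (SE) for SMC4 and -0.61 ± 0.04 for SMC2 (edgeR's quasi-likelihood test, adjusted p = 8.34e-17 and 5.00e-12). The arms pair with each other in the protein complex. The log2 ratio of SMC4 to SMC2, on the CPM scale, was 0.645 to 0.690 in the extract libraries and 1.13 to 1.253 in the vehicle libraries, with no overlap.

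Among the condensin I subunits, NCAPG, the HEAT-repeat subunit that also binds DNA, had 31.2, 32.5 and 32.4 CPM under the extract, against 65.1, 66.2 and 58.8 CPM in vehicle. NCAPH, the kleisin, had 37.6, 39.5 and 38.1 CPM under the extract, against 61.5, 67.5 and 63.003 CPM in vehicle. NCAPD2, the most abundant subunit, had 271.0, 265.6 and 263.3 CPM under the extract, against 320.6, 324.9 and 315.8 CPM in vehicle. The 3 genes were lower in each extract library than in any vehicle library, and NCAPG was at 0.506 times its vehicle level. The log2 changes were -0.98 ± 0.05, -0.73 ± 0.05 and -0.27 ± 0.03 in that order (edgeR, adjusted p = 7.09e-14, 3.20e-12 and 2.17e-08).

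Among the condensin II subunits, NCAPD3 had 50.9, 51.02 and 52.5 CPM under the extract, against 64.6, 66.8 and 66.4 CPM in vehicle. NCAPG2 had 69.3, 68.7 and 64.8 CPM under the extract, against 83.04, 86.5 and 75.8 CPM in vehicle. Both HEAT-repeat subunits were lower in all 3 extract libraries, by log2 changes of -0.36 ± 0.04 and -0.28 ± 0.04 (edgeR, adjusted p = 3.25e-08 and 8.59e-06). NCAPH2 went the other way, with 23.97, 22.9 and 20.7 CPM under the extract, against 18.3, 19.6 and 15.8 CPM in vehicle, which is 0.33 ± 0.11 on the log2 scale (edgeR, adjusted p = 0.0129). Its groups do not overlap, but the call for NCAPH2 was lost without vehicle replicate 3 (0.25, adjusted p = 0.0852) and without extract replicate 1 (0.28, adjusted p = 0.0560). The 2 kleisins thus stood closer in level, with a log2 ratio of NCAPH to NCAPH2 of 0.651 to 0.879 under the extract and 1.75 to 1.99 in vehicle, again on the CPM scale. With 500 µg/mL of the water extract that ratio was 1.38 to 1.85.

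**Figure D1:**
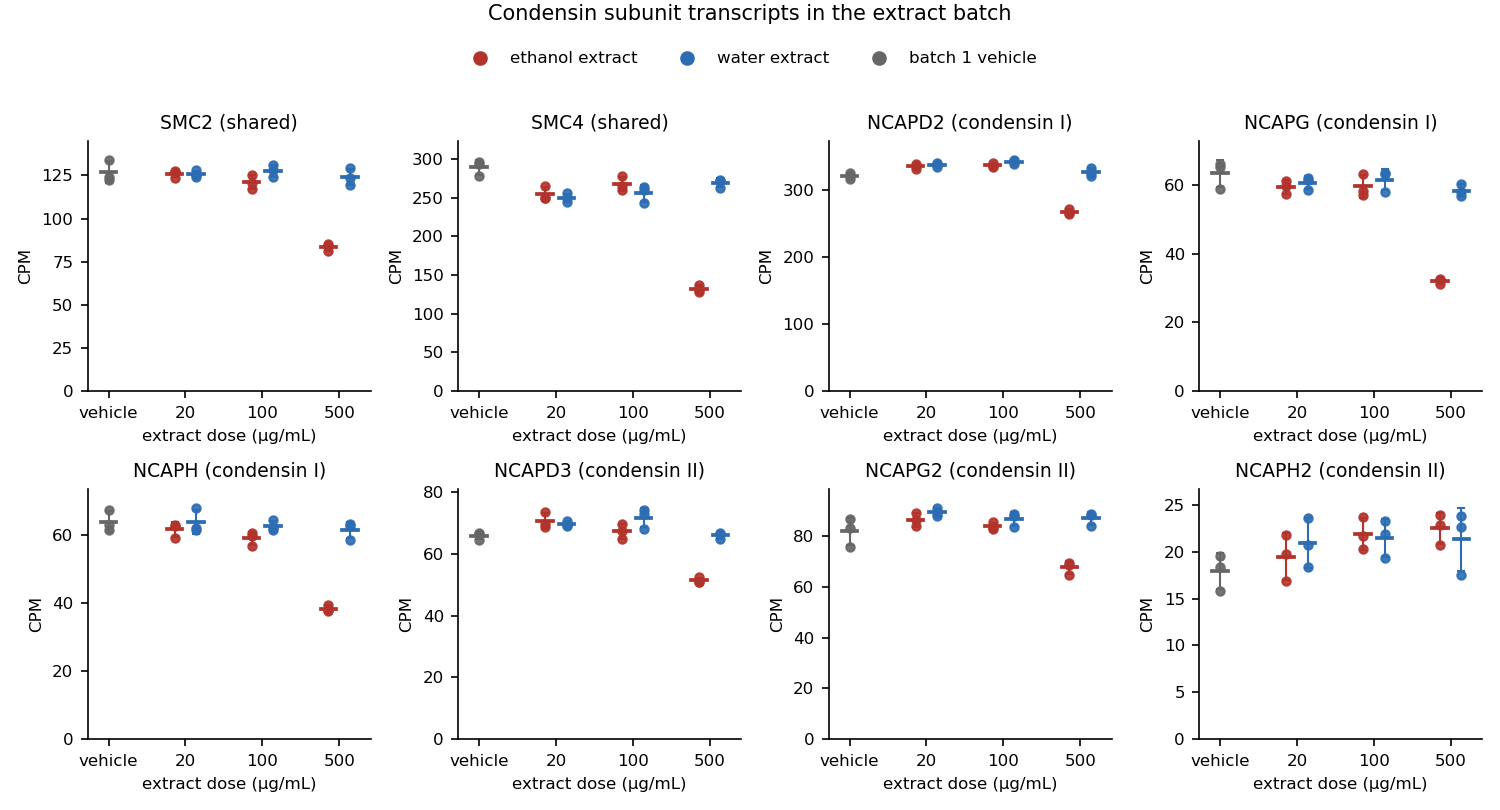
CPM of each condensin subunit (vertical axes, from 0) at each extract dose in µg/mL (horizontal axes) in the first batch, with the ethanol extract in red, the water extract in blue and vehicle in grey; points are libraries, horizontal bars group means and vertical bars SD (n = 3). At 500 µg/mL of the ethanol extract SMC4 lies at 128.5 to 137.4 CPM, against 277.7 to 295.8 CPM in vehicle, and 7 of the 8 subunits are below all other groups.

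The median log2 change of the 8 subunits was -0.48, against 0.001 over all genes tested. Summed over the 8, the level was 687 to 703 CPM under the extract and 996 to 1059 CPM in vehicle. The condensin I subunits summed to 334 to 340 CPM under the extract, against 438 to 459 CPM in vehicle. The condensin II subunits summed to 138 to 144 CPM under the extract, against 158 to 173 CPM in vehicle. Scaled by library totals without TMM factors, the median of all genes moved by 0.11 on the log2 scale, and the 7 lower subunits were still called lower, NCAPD2 by -0.16.

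Beside the subunits, the summed A549 markers were 11189 to 11438 CPM under the extract and 17082 to 18383 CPM in vehicle, and the share of counts on mitochondrially encoded genes was 15.9 to 17.7% under the extract and 16.9 to 22.1% in vehicle. Their part in the result was not tested. The 6 fibroblast markers summed to 59.7 to 61.2 CPM under the extract and 63.3 to 69.1 CPM in vehicle.

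Genes that act with condensin were also measured. Of 11 genes for condensin control and mitotic chromosome structure, 8 fell and 0 rose, with a median log2 change of -0.61. CCNB1, the cyclin that activates CDK1, averaged 46.7 ± 1.1 CPM under the extract and 161 ± 7.8 CPM in vehicle (SD, n = 3 each), a log2 change of -1.79. PLK1, a mitotic kinase, changed by -1.69 on the log2 scale, and AURKB, the kinase named in the series title, averaged 49.3 ± 1.1 CPM under the extract and 92.6 ± 1.2 CPM in vehicle, a change of -0.91. TOP2A, the topoisomerase that works beside condensin on the chromosome axis, averaged 597 ± 8.8 CPM under the extract and 933 ± 51 CPM in vehicle, a change of -0.64. The edgeR adjusted p-values of these 4 genes ran from 1.81e-19 to 1.68e-13. The 3 that did not pass, named after their values were seen, were MCPH1 (-0.10), PHF8 (0.05) and CDK1 (-0.02).

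The other SMC complexes were read against the same shares over all genes, 34.4% lower and 69.1% changed. Of 16 genes of cohesin, the ring that holds sister chromatids together, and its control, 7 fell and 6 rose, with a median of -0.03. PTTG1, the securin that restrains separase, fell by 1.85 on the log2 scale, PDS5B, a regulator of cohesin on chromatin, by 1.78 and PDS5A by 0.58, while CDCA5, the sororin that protects cohesion, rose by 0.62. Of 6 genes of the SMC5/6 complex, which acts in DNA repair, 4 fell and 0 rose, with SMC5 at -0.53, SMC6 at -0.39, NSMCE4A at -0.27 and NSMCE1 at -0.25, a share called that is near the background. These genes passed edgeR's test with adjusted p-values of 0.00109 or less.

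Cell cycle genes at large moved as well. All 10 G2/M genes fell, with a median log2 change of -1.34 and changes of -2.92 for HMMR, -2.67 for CENPE, -2.47 for BUB1 and -1.56 for CDC20. Their sum was 566 to 584 CPM under the extract, against 1256 to 1315 CPM in vehicle. Of 10 S phase genes 9 fell, with a median of -0.41, led by MCM6 (-1.45), RRM2 (-0.72), MCM5 (-0.63) and MCM4 (-0.38). All 4 growth arrest genes rose, GDF15 by 1.58, CCNG2 by 1.31, BTG2 by 0.78 and CDKN1A, the p21 inhibitor of cyclin-dependent kinases, by 0.47. The condensin median of -0.48 lay between the S phase and the G2/M medians, and the difference between the lists was not tested.

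At lower doses the ethanol extract left most subunits near vehicle. At 100 µg/mL edgeR called 0 of the 8, where 17.5% of all genes were called, although 4 had an unadjusted p under 0.05 and DESeq2 called 2 (SMC4 lower, adjusted p = 0.0287, and NCAPD2 higher, adjusted p = 0.0410). At 20 µg/mL edgeR called SMC4 alone, with a background of 7.45%. SMC4 had 248.9, 248.9 and 264.8 CPM at 20 µg/mL and 278.1, 259.9 and 265.3 CPM at 100 µg/mL, against 295.8, 293.7 and 277.7 CPM in the vehicle libraries that all these comparisons share. Its log2 change was -0.19 ± 0.04 at 20 µg/mL (edgeR, adjusted p = 0.00629) and -0.11 ± 0.04 at 100 µg/mL (edgeR, adjusted p = 0.0608). The means of SMC4 in the ethanol series, vehicle first, were 289, 254, 268 and 132 CPM, lowest at 500 µg/mL, with the mean at 100 µg/mL above that at 20 µg/mL.

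With the water extract SMC4 was called lower at 20 and 100 µg/mL. SMC4 had 249.0, 244.3 and 255.5 CPM at 20 µg/mL of the water extract, against the vehicle values given above, a log2 change of -0.21 ± 0.04 (edgeR, adjusted p = 0.00236, background 9.51%). At 100 µg/mL it had 243.1, 259.3 and 264.0 CPM, a change of -0.18 ± 0.04 (edgeR, adjusted p = 0.00599). At both doses each library lay below each vehicle library, and at 20 µg/mL SMC4 was the single subunit called. Vehicle and extract libraries differ in the leading digit of the library number, so an effect of either extract on SMC4 cannot be told apart from that. Without TMM factors the median of all genes moved by 0.104 at 20 µg/mL and 0.0974 at 100 µg/mL of the water extract, on the log2 scale. Under library totals without TMM factors the SMC4 calls at 20 µg/mL of the ethanol extract (-0.11, adjusted p = 0.123), 20 µg/mL of the water extract (-0.11, adjusted p = 0.0909) and 100 µg/mL of the water extract (-0.08, adjusted p = 0.211) were all lost; the ethanol one was also lost with only the 2 groups in the fit (adjusted p = 0.158).

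At 100 µg/mL of the water extract NCAPD2 and NCAPD3, the matching HEAT-repeat subunits of the 2 complexes, were called higher, where the background was 12.6%. NCAPD2 had 337.8, 344.1 and 341.8 CPM in the extract libraries, against 320.6, 324.9 and 315.8 CPM in vehicle, a log2 change of 0.09 ± 0.03 (edgeR, adjusted p = 0.0400). NCAPD3 had 74.3, 68.3 and 72.98 CPM in the extract libraries, against 64.6, 66.8 and 66.4 CPM in vehicle, a change of 0.12 ± 0.04 (edgeR, adjusted p = 0.0399). The groups do not overlap, yet each of these calls was lost under 7 of 12 alternatives, including the fits without vehicle replicates 1 or 3 and without extract replicates 1 or 3. At 500 µg/mL of the water extract edgeR called 0 of the 8 (background 21.1%), 3 had an unadjusted p under 0.05 and DESeq2 called SMC4 (adjusted p = 0.0428). Of the 11 condensin control genes PLK1 (-0.33) and AURKB (-0.17) fell with this dose in edgeR, and of the 10 G2/M genes 6 fell, with a median log2 change of -0.14.

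**Figure D2:**
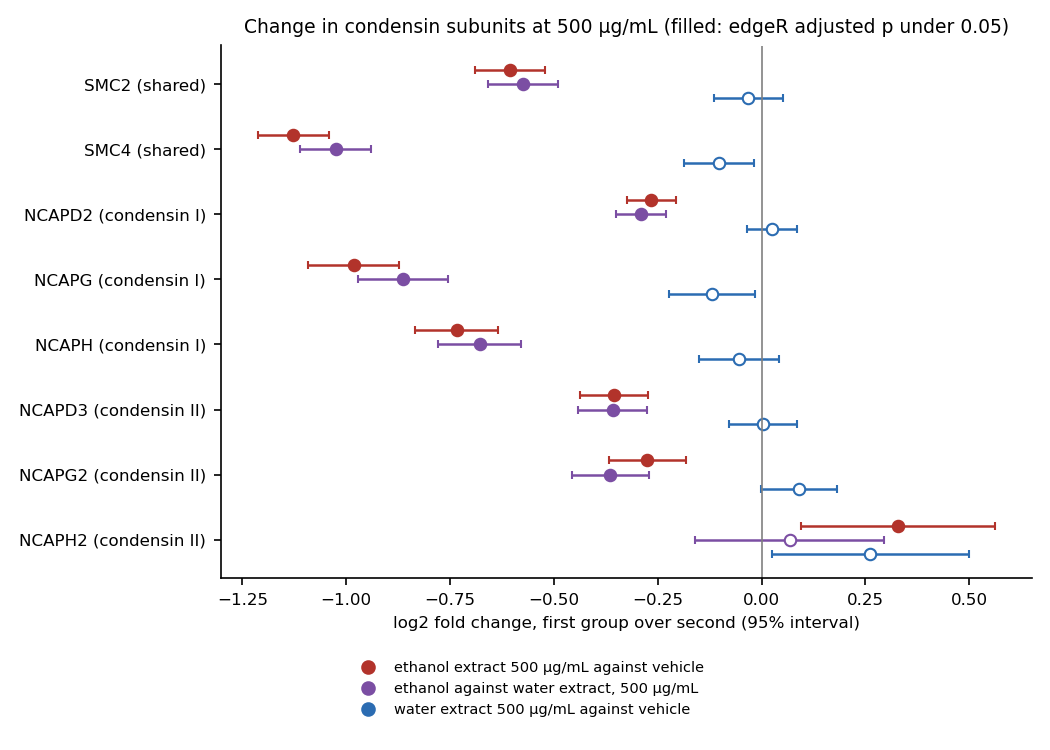
Log2 fold change of each subunit at 500 µg/mL (horizontal axis, with 95% intervals), for the ethanol extract against vehicle in red, ethanol against water extract in purple and the water extract against vehicle in blue; filled points passed edgeR's test. SMC4 lies at -1.13 and -1.03 in the comparisons of the ethanol extract, and no point of the water extract against vehicle is filled.

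Ethanol and water extract were then compared at the same dose. At 500 µg/mL 7 of the 8 subunits were lower with the ethanol extract (background 66.1%). SMC4 averaged 132 ± 4.6 CPM with the ethanol extract and 269 ± 5.6 CPM with the water extract (SD, n = 3 each), a log2 difference of -1.03 ± 0.04. NCAPG differed by -0.86, NCAPH by -0.68, SMC2 by -0.57, NCAPG2 and NCAPD3 by -0.36 each and NCAPD2 by -0.29, with edgeR adjusted p-values of 1.50e-07 or less and no overlap between the groups. NCAPH2 averaged 22.5 ± 1.6 CPM with the ethanol extract and 21.3 ± 3.4 CPM with the water extract, a difference of 0.07 with a 95% interval of -0.16 to 0.30 (edgeR, adjusted p = 0.605). At 100 µg/mL edgeR called 0 of 8 (1 with an unadjusted p under 0.05, 0 by DESeq2, background 1.77%), and at 20 µg/mL again 0 of 8 (0 with an unadjusted p under 0.05, 0 by DESeq2, background 0%).

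Within the ethanol extract the drop lay between 100 and 500 µg/mL. At 500 against 100 µg/mL 7 subunits were lower (background 65.8%), from SMC4 at -1.02 to NCAPG2 at -0.31, with NCAPH2 at 0.04 (95% interval -0.19 to 0.26, edgeR adjusted p = 0.788). At 500 against 20 µg/mL the same 7 were lower (background 67.5%), with NCAPH2 at 0.20 (edgeR, adjusted p = 0.110). At 100 against 20 µg/mL edgeR called 0 of 8, with 0 at an unadjusted p under 0.05 and 0 by DESeq2 (background 1.79%). The 3 dose comparisons of the water extract gave 0 calls in 24 tests by edgeR and by DESeq2, with 3 at an unadjusted p under 0.05 (background 1.07%).

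Ordered by mean level, the group with 500 µg/mL of the ethanol extract was last of the 7 groups for all subunits except NCAPH2, and its libraries did not overlap those of the next group. Among the 6 neighbouring pairs in each order this was the only gap, except that SMC4 in vehicle also lay above the next group. How many of all genes show such a gap was not computed, so this is a description. For NCAPH2 vehicle was lowest, at 17.9 CPM, the ethanol extract at 500 µg/mL highest, at 22.5 CPM, and no 2 neighbours were apart beyond their spread.

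The second question was which of the 8 ingredients moved the subunits. Against the vehicle of the second batch edgeR called 7 lower and 0 higher in 192 tests, 5 of them with 10 µM oleanolic acid and 2 with 10 µM gallic acid. The subunits differed with the mitochondrial share of a library in this batch. In the 16 libraries with a low mitochondrial share SMC4 ranged from 78.2 to 228 CPM (median 170), against 188 to 268 CPM (median 230) in the other 59, and NCAPH2 ranged from 30.2 to 89.4 CPM (median 54.4), against 20.1 to 41.9 CPM (median 26.5). NCAPD2 had a median of 245 CPM in these libraries and 317 CPM in the others, NCAPH 50.8 and 65.7 CPM, and NCAPD3 55.1 and 69.2 CPM. The medians of SMC2 were 129 and 136 CPM, those of NCAPG 61.1 and 65.3 CPM and those of NCAPG2 86.3 and 92.6 CPM, with broadly overlapping ranges. Over the 75 libraries SMC4 and NCAPH2 ran against each other (Pearson r = -0.84, as a description, over libraries that share groups and depth). The part of the low share in the results was not tested beyond the fits given here.

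**Figure D3:**
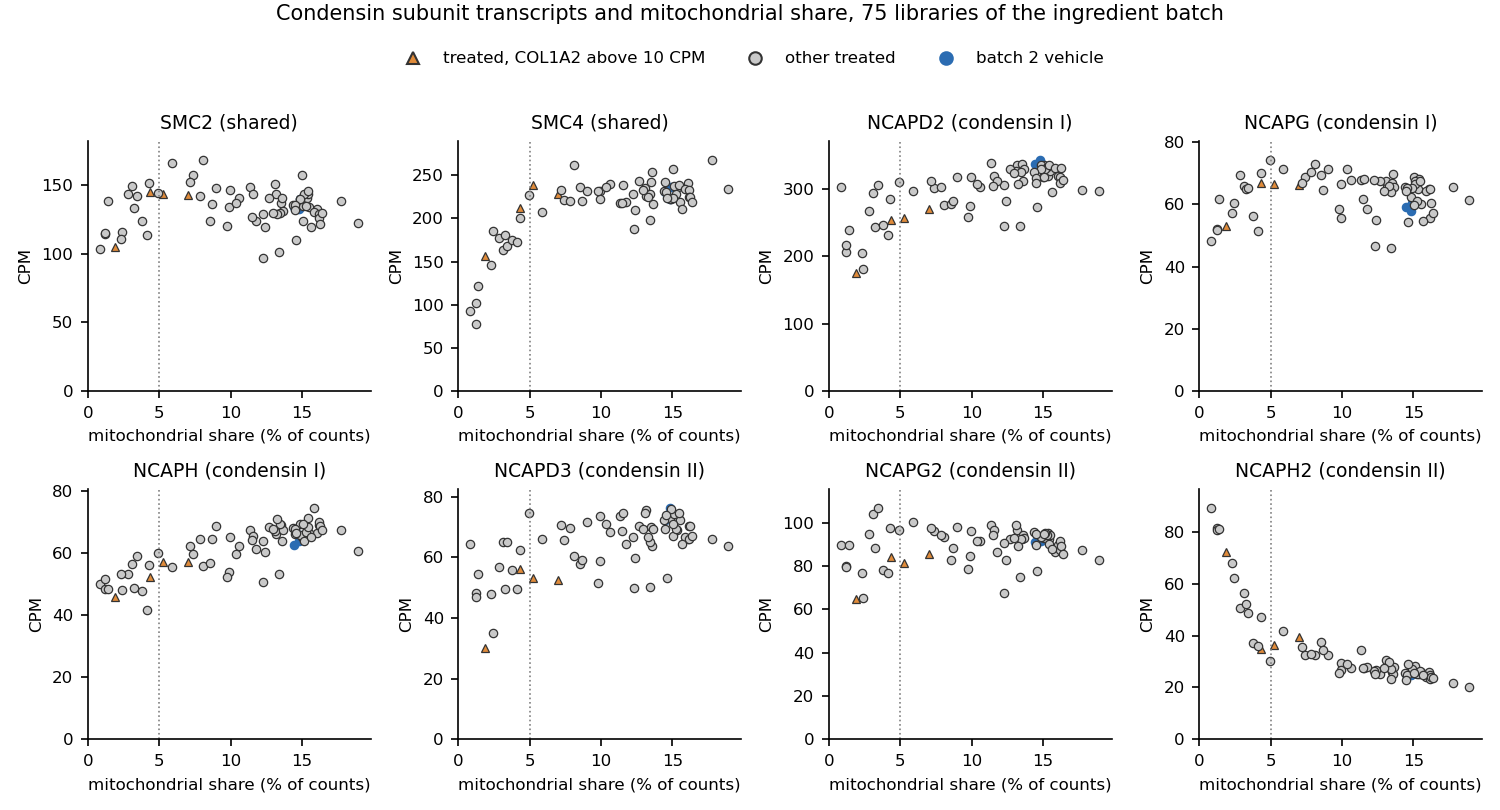
CPM of each subunit in the 75 libraries of the second batch (vertical axes) against the share of counts on mitochondrially encoded genes in percent (horizontal axes); triangles are treated libraries with over 10 CPM of COL1A2, grey circles other treated libraries, blue circles vehicle, and the dotted line is at 5%. Below 5% SMC4 reaches down to 78.2 CPM and NCAPH2 up to 89.4 CPM.

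Oleanolic acid is a pentacyclic triterpenoid of many plants. At 10 µM SMC2, NCAPD2, NCAPH, NCAPD3 and NCAPG2 passed the test, against a background of 4.45% of genes called. Every subunit except NCAPH2 had all 3 oleanolic acid libraries below all 3 vehicle libraries. The share of all genes with such separate groups was not computed. SMC2 had 101.5, 97.2 and 113.8 CPM with oleanolic acid, against 134.1, 133.1 and 140.3 CPM in vehicle. The log2 change was -0.38 ± 0.10 (edgeR, adjusted p = 0.0137). SMC4 had 198.1, 187.8 and 172.4 CPM with oleanolic acid, against 230.2, 222.6 and 236.2 CPM in vehicle, a change of -0.30 ± 0.26 that did not pass (edgeR, adjusted p = 0.637). SMC4 thus has separate groups and a wide error in a fit whose spread is shared by all 25 groups.

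In condensin I, NCAPD2 had 245.1, 245.0 and 231.9 CPM with oleanolic acid, against 336.5, 343.0 and 338.8 CPM in vehicle, a log2 change of -0.50 ± 0.15 (edgeR, adjusted p = 0.0431). NCAPH had 53.4, 50.6 and 41.6 CPM with oleanolic acid, against 62.8, 63.9 and 65.7 CPM in vehicle, a change of -0.40 ± 0.12 (edgeR, adjusted p = 0.0448). NCAPG had 46.1, 46.5 and 51.3 CPM with oleanolic acid, against 59.2, 57.997 and 60.4 CPM in vehicle, a change of -0.30 ± 0.10 that did not pass (edgeR, adjusted p = 0.0619). NCAPH was lowest, and NCAPG highest, in replicate 3, the oleanolic acid library with a mitochondrial share of 4.11%.

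In condensin II, NCAPD3 had 50.3, 49.9 and 49.5 CPM with oleanolic acid, against 72.3, 76.4 and 74.7 CPM in vehicle, a log2 change of -0.58 ± 0.17 (edgeR, adjusted p = 0.0394). NCAPG2 had 74.98, 67.5 and 77.03 CPM with oleanolic acid, against 90.99, 93.1 and 91.5 CPM in vehicle, a change of -0.33 ± 0.10 (edgeR, adjusted p = 0.0388). NCAPH2 had 23.4, 25.0004 and 35.98 CPM with oleanolic acid, against 25.18, 24.95 and 25.02 CPM in vehicle, and overlapped (0.17 ± 0.41, edgeR adjusted p = 0.902). The high value of NCAPH2 is again replicate 3.

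These 5 calls sit close to the threshold. Those of NCAPD2 and NCAPD3 were lost on leaving out any 1 of the 6 libraries (adjusted p = 0.0769 to 0.142), those of NCAPG2 and NCAPH without any one vehicle replicate or oleanolic acid replicate 2 (adjusted p = 0.0732 to 0.234), NCAPG2 also without oleanolic acid replicate 1 (0.0874) and NCAPH without replicate 3 (0.276), and that of SMC2 without vehicle replicate 3 or oleanolic acid replicates 1 or 2 (0.0682 to 0.107). None was called when no filter on low counts was set (adjusted p = 0.153 to 0.391), and library totals without TMM factors ended all but the NCAPH call (SMC2 0.134, NCAPD2 0.0848, NCAPD3 0.0861 and NCAPG2 0.245). Without the 18 libraries that stand apart, which leaves oleanolic acid replicates 1 and 2, all 7 subunits other than NCAPH2 were called lower (edgeR adjusted p = 5.34e-08 to 0.00324, background 21%), with SMC4 at -0.26, NCAPG at -0.36 and NCAPD2 at -0.48.

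**Figure D4:**
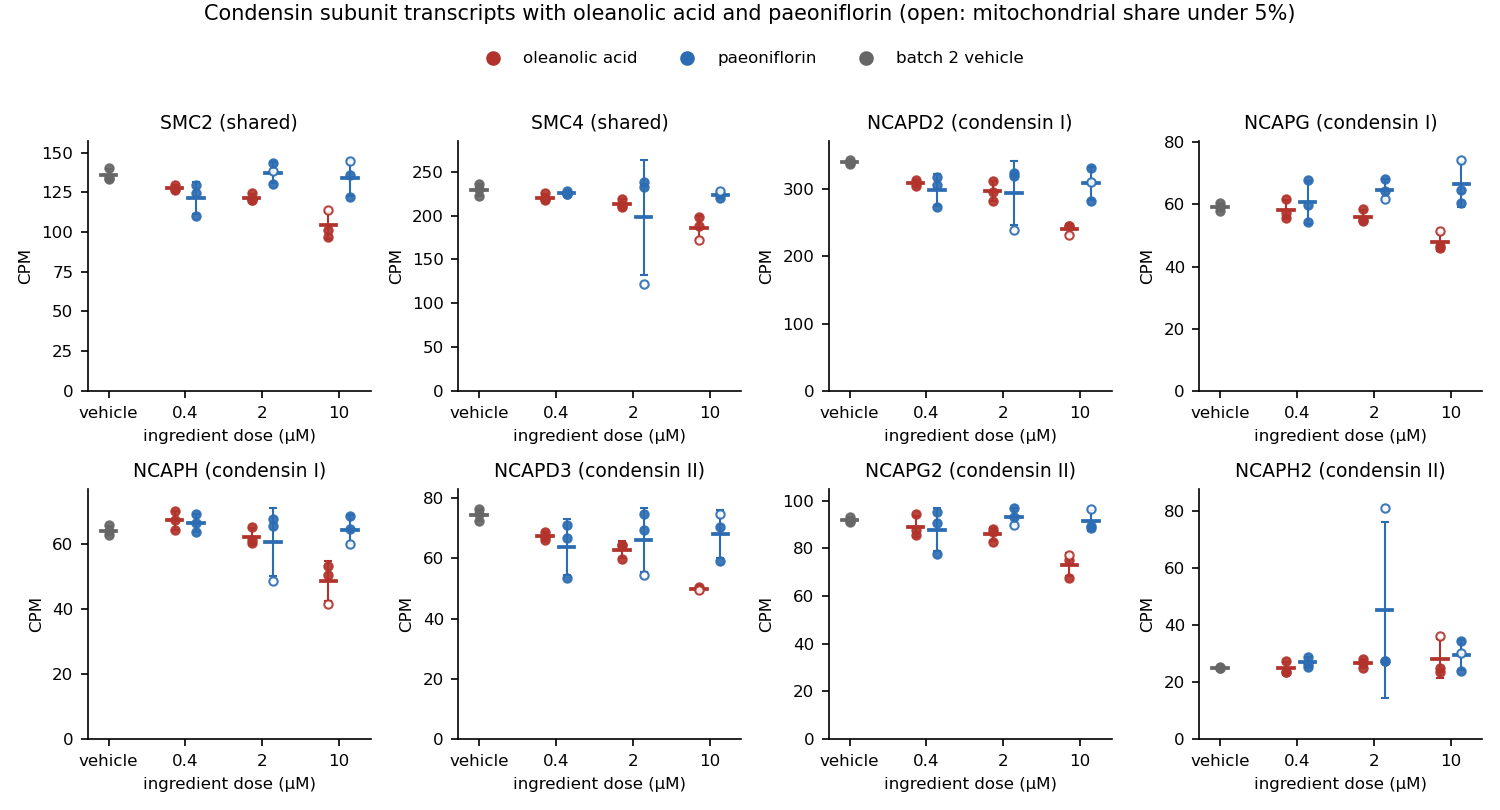
CPM of each subunit (vertical axes, from 0) with vehicle and with 0.4, 2 and 10 µM (horizontal axes) of oleanolic acid in red and paeoniflorin in blue; points are libraries, open where the mitochondrial share is under 5%, horizontal bars are means and vertical bars SD (n = 3). NCAPD2 has means of 339, 309, 297 and 241 CPM from vehicle to 10 µM oleanolic acid.

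Means of most subunits were lower at each step up in oleanolic acid dose. From vehicle through 0.4 and 2 to 10 µM the means were 339, 309, 297 and 241 CPM for NCAPD2, 74.4, 67.3, 62.9 and 49.9 CPM for NCAPD3, 136, 128, 121 and 104 CPM for SMC2 and 59.2, 58.2, 56.1 and 47.99 CPM for NCAPG. NCAPH instead had 64.1, 67.3, 62.3 and 48.5 CPM, with 0.4 µM above vehicle. At 0.4 and 2 µM edgeR called 0 of the 8 against vehicle, with 0 at an unadjusted p under 0.05 and 0 by DESeq2. Of 18324 genes 33 were called at 0.4 µM and 59 at 2 µM. Leaving out the libraries that stand apart, NCAPD2 (-0.21, adjusted p = 0.00961) and NCAPD3 (-0.25, adjusted p = 0.0253) were called lower at 2 µM in edgeR (background 7.43%). With only the 2 groups in the edgeR fit NCAPD2 and NCAPD3 were called lower at 0.4 µM (adjusted p = 0.0146 and 0.0249). At 2 µM such a fit called both lower (adjusted p = 0.0299 and 0.0157), and SMC2 as well (adjusted p = 0.0384). The share of all genes called in these fits is not given here. At 10 against 0.4 µM 7 subunits had separate groups, a count without a share over all genes beside it. In that comparison edgeR called NCAPH lower (-0.47 ± 0.12, adjusted p = 0.0193, background 2.47%). That call was lost without either oleanolic acid 10 µM replicate 2 (adjusted p = 0.0501) or 3 (0.245) and without 0.4 µM replicate 1 (0.116) or 2 (0.0748). Without the libraries that stand apart 6 subunits were lower at 10 than at 0.4 µM (background 10.6%), with SMC4 (-0.19, edgeR adjusted p = 0.0551) and NCAPH2 (-0.03) not called.

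The same lists were read with 10 µM oleanolic acid, where 4.45% of all genes were called. Of the 11 condensin control genes 0 were called by edgeR, with a median log2 change of -0.18. Of the 16 cohesin genes 2 fell (ESPL1, the separase, by 0.58 and ESCO2, a cohesin acetyltransferase, by 0.88), and of the 6 SMC5/6 genes 0 passed. Of the 10 S phase genes RRM2 (-0.40) and MCM4 (-0.38) fell, and of the 10 G2/M genes BUB1B (-0.40), BUB1 (-0.49) and CENPF (-0.61) fell. BTG2, an antiproliferative gene, rose by 0.66 and was the single growth arrest gene called. With the libraries that stand apart left out the background was 21% of all genes. In that fit edgeR called 5 of the 11 condensin control genes lower (CDK1, CCNB1, MKI67, PLK1 and TOP2A, named after their values were seen). Also lower were 9 of the 16 cohesin genes, 1 of the 6 SMC5/6 genes (SMC5), 8 of the 10 S phase genes and 7 of the 10 G2/M genes. Of the 4 growth arrest genes 3 were called higher (GDF15, CDKN1A and BTG2). The G2/M sum was 935 to 937 CPM with oleanolic acid and 1179 to 1214 CPM in vehicle.

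Gallic acid, a trihydroxylated plant benzoic acid, had 2 subunits called lower at 10 µM, against a background of 13.5%. NCAPD2 had 180.6, 296.5 and 243.1 CPM with gallic acid, against 336.5, 343.0 and 338.8 CPM in vehicle, a log2 change of -0.50 ± 0.15 (edgeR, adjusted p = 0.0249). NCAPD3 had 34.999, 63.8 and 49.7 CPM with gallic acid, against 72.3, 76.4 and 74.7 CPM in vehicle, a change of -0.59 ± 0.17 (edgeR, adjusted p = 0.0220). The 3 gallic acid libraries differ widely from each other, and replicates 1 and 3, with mitochondrial shares of 2.40 and 3.25%, are the low ones, while replicate 2 has 18.9%. NCAPH2 had 62.4, 20.1 and 52.3 CPM in these libraries, against 25.18, 24.95 and 25.02 CPM in vehicle, and so split the same way. Without gallic acid replicate 1 the changes were -0.33 and -0.39 (edgeR, adjusted p = 0.399 and 0.376), and without all libraries that stand apart, where replicate 2 is left alone and is assumed to vary like the other groups, they were -0.19 and -0.22 (adjusted p = 0.203 and 0.351). Leaving out any 1 vehicle replicate or gallic acid replicate 3 also ended both calls (adjusted p = 0.0543 to 0.0719). Of the other lists, 0 of 11 condensin control genes were called with 10 µM gallic acid, 1 cohesin gene rose and 3 fell, and 2 of 10 G2/M genes fell. With replicate 2 alone left, the median log2 changes of the lists lay between -0.16 (S phase) and 0.03 (growth arrest).

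In the other 22 ingredient and dose groups edgeR called 0 of 176 subunit tests, where 0.943% of gene tests were called. An unadjusted p under 0.05 was reached by 16, and DESeq2 called NCAPG (0.26, adjusted p = 0.0458) with 0.4 µM catechin and NCAPH2 (1.13, adjusted p = 0.0441) with 2 µM catechin, both higher. NCAPH2 with 2 µM catechin also had the smallest adjusted p in edgeR (0.06001), at 89.4, 36.3 and 37.4 CPM against 25.18, 24.95 and 25.02 CPM in vehicle. Its highest value is replicate 1, whose mitochondrial share of 0.822% is the lowest of the batch and in which SMC4 was at 93.2 CPM. Without the libraries that stand apart 6 tests in these groups were called higher and 12 lower (background 6.48%). This background is pooled over groups that differ widely. It was 34% with 0.4 µM catechin, left with 2 libraries, where 3 subunits were called higher and 3 lower. The counts also include 2 µM catechin, left with 1 library, so its calls are not read here. The calls lay in 10, 2 and 0.4 µM catechin, 10 µM hederagenin, 2 µM oleanolic acid and 0.4 µM paeoniflorin. Among them NCAPD2, NCAPD3 and NCAPH were lower with 10 µM hederagenin, by -0.35, -0.43 and -0.27 (edgeR, adjusted p = 4.13e-05, 0.000322 and 0.00138, background 15.2%), where the fit with all libraries gave -0.39, -0.43 and -0.32 (adjusted p = 0.187, 0.209 and 0.172).

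Over the 25 groups 10 µM oleanolic acid had the lowest mean of SMC2 (104 CPM), NCAPG (47.99 CPM), NCAPH (48.5 CPM) and NCAPG2 (73.2 CPM). For NCAPD2 and NCAPD3 10 µM gallic acid was lowest (240.1 and 49.5 CPM) with oleanolic acid next (240.7 and 49.9 CPM), and these neighbours overlap. SMC4 was lowest with 0.4 µM paeonol (179 CPM), whose replicate 2 was at 78.2 CPM while its other libraries were at 224.7 and 233.5 CPM. NCAPH2 was highest with 2 µM catechin (54.3 CPM) and lowest with 0.4 µM oleanolic acid (24.8 CPM). Of the 24 neighbouring pairs in each order at most 1 did not overlap. These gaps include 10 µM oleanolic acid below its upper neighbour for NCAPG, NCAPD2 and NCAPD3. How many of all genes show such gaps was not computed.

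**Figure D5:**
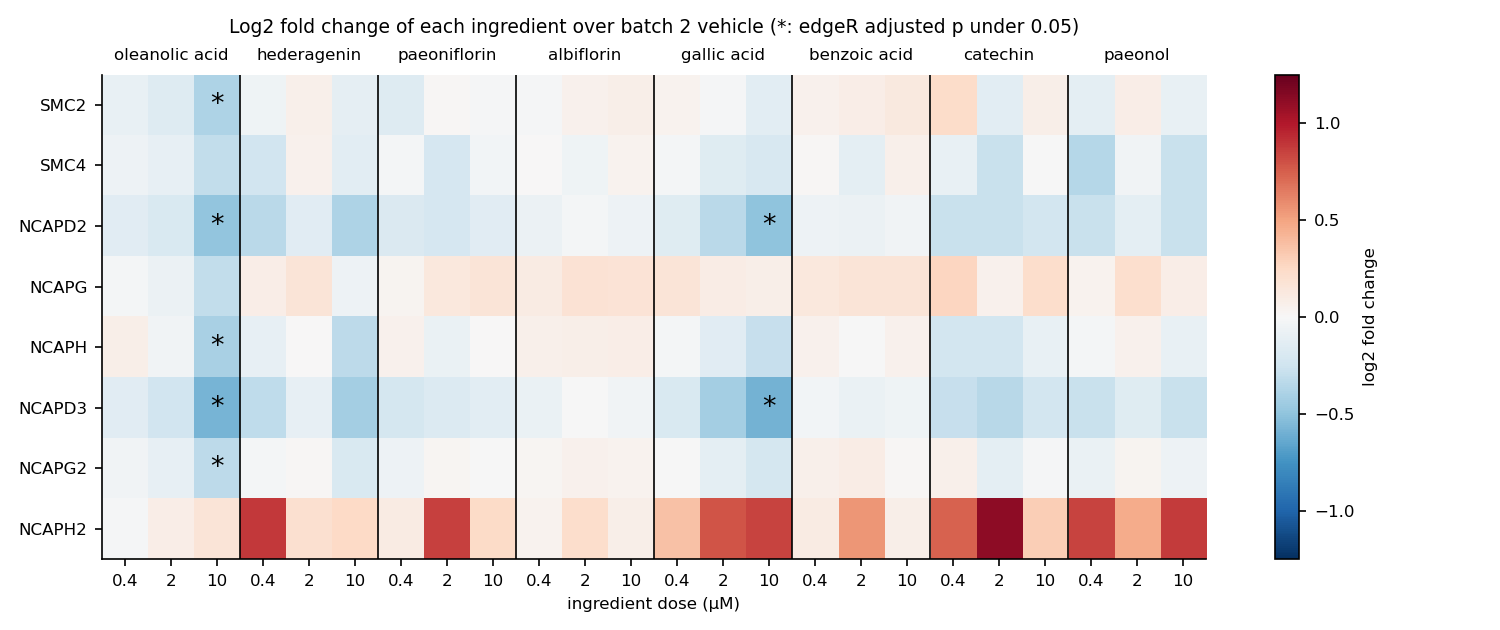
Log2 fold change of each subunit (rows) with each ingredient at 0.4, 2 and 10 µM (columns) against the vehicle of the second batch, with lower levels in blue and higher in red; asterisks mark an edgeR adjusted p under 0.05. The marked cells are 5 with 10 µM oleanolic acid and 2 with 10 µM gallic acid, all lower.

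For every ingredient the 10 µM group was set against its 0.4 µM group. Beyond oleanolic acid, edgeR called 0 of 56 tests in the 7 other ingredients (4 with an unadjusted p under 0.05, 0 by DESeq2, background 0.229%), the smallest adjusted p being 0.273 with gallic acid. Once the libraries that stand apart were left out, the background pooled over the 7 comparisons was 0.647%. NCAPH then differed by -0.34 with hederagenin. That fit set 2 libraries at 10 µM against 1 library at 0.4 µM, so its call is not read here. Without gallic acid 10 µM replicate 2 NCAPD2 (-0.53, adjusted p = 0.0385) and NCAPD3 (-0.62, adjusted p = 0.0359) were called lower with gallic acid. Ingredients whose library numbers share a leading digit were also compared at matched dose. Oleanolic acid against paeoniflorin at 10 µM gave the 2 calls of this kind (background 2.59%). SMC2 averaged 104 ± 8.6 CPM with oleanolic acid and 134 ± 11 CPM with paeoniflorin (SD, n = 3 each), a log2 difference of -0.37 ± 0.10 (edgeR, adjusted p = 0.0281). NCAPG had 46.1, 46.5 and 51.3 CPM with oleanolic acid and 64.5, 60.4 and 74.4 CPM with paeoniflorin, a difference of -0.47 ± 0.10 (edgeR, adjusted p = 0.00127).

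The SMC2 difference from paeoniflorin was lost without oleanolic acid replicates 1 or 2 or paeoniflorin replicates 1 or 3 (adjusted p = 0.0830 to 0.210), and also without TMM factors (0.120), with only the 2 groups (0.115) and with no filter on low counts (0.339), 7 of 13 alternatives. That of NCAPG was lost only with the 2 groups alone in the fit (0.0599) among 13 alternatives. DESeq2 called NCAPH and NCAPG2 lower as well, and without the libraries that stand apart 6 subunits were lower, all but SMC4 and NCAPH2 (background 9.74%). The 11 other comparisons of this kind gave 0 calls of 88 tests in edgeR (4 with an unadjusted p under 0.05, 0 by DESeq2, background 0.162%). With the libraries that stand apart left out, 4 were called (background 2.13%). NCAPD2 (-0.24, adjusted p = 0.0235) and NCAPH (-0.27, adjusted p = 0.00867) were lower with hederagenin than with paeonol at 10 µM, and at 0.4 µM NCAPH (0.25, adjusted p = 0.0270) was higher and SMC2 (-0.27, adjusted p = 0.0387) lower with gallic acid than with catechin. NCAPD3 was lower with gallic acid than with catechin at 10 µM without gallic acid replicate 2 (-0.58, adjusted p = 0.0467).

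The last comparisons set structurally related ingredients side by side, 3 pairs at 3 matched doses and so 9 comparisons, each adjusted over all genes. In every pair the ingredients differ in the leading digit of the library number. A difference between them therefore cannot be told apart from a difference between these sets of libraries. Gallic acid, which is benzoic acid with hydroxyl groups on its ring, was lower than benzoic acid at 10 µM in NCAPD2 and NCAPD3 (background 8.7%). NCAPD2 had 180.6, 296.5 and 243.1 CPM with gallic acid and 317.1, 335.5 and 335.8 CPM with benzoic acid, a log2 difference of -0.46 (95% interval -0.76 to -0.15, edgeR adjusted p = 0.0479). NCAPD3 differed by -0.53 (-0.88 to -0.18, adjusted p = 0.0465). Both calls were lost without any one of the 3 benzoic acid libraries or gallic acid replicates 1 or 3 (adjusted p = 0.0733 to 0.549), and without the libraries that stand apart the differences were -0.15 and -0.16 (adjusted p = 0.416 and 0.587). DESeq2 called NCAPH lower as well (adjusted p = 0.0409).

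Hederagenin is oleanolic acid with an added hydroxyl group. At 10 µM edgeR called 0 of 8 between them, where 2 of 18324 genes were called. In 5 subunits every hederagenin library lay above every oleanolic acid library, a count without a share over all genes beside it. SMC2 had 133.9, 120.1 and 124.1 CPM with hederagenin and 101.5, 97.2 and 113.8 CPM with oleanolic acid, a log2 difference of 0.28 with a 95% interval of 0.08 to 0.48. NCAPG had 55.6, 58.5 and 56.3 CPM with hederagenin and 46.1, 46.5 and 51.3 CPM with oleanolic acid, a difference of 0.24 (0.05 to 0.44). These intervals are for 1 gene each, and the edgeR adjusted p over all genes was 1 for both. Without the libraries that stand apart both were called, SMC2 at 0.36 (adjusted p = 0.0197) and NCAPG at 0.31 (adjusted p = 0.0274), with a background of 0.955%. At 2 µM the differences were again 0.23 (0.03 to 0.43) for SMC2 and 0.24 (0.05 to 0.44) for NCAPG, and not called.

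Paeoniflorin and albiflorin are isomeric monoterpene glycosides of peony. At 10 µM SMC4 had 220.1, 224.4 and 227.8 CPM with paeoniflorin and 236.4, 237.0 and 238.2 CPM with albiflorin, separate groups with a log2 difference of -0.08 (95% interval -0.59 to 0.43). The largest difference of the pair was NCAPH2 at 2 µM, 0.63 (-0.19 to 1.45, edgeR adjusted p = 0.658), where paeoniflorin replicate 1, with a mitochondrial share of 1.39%, was at 81.04 CPM and the 5 other libraries were at 25.9 to 34.4 CPM. Over the 8 comparisons other than gallic against benzoic acid at 10 µM edgeR called 0 of 64 tests (background 0.00136%), 6 had an unadjusted p under 0.05, the smallest adjusted p was 0.262 and DESeq2 called 0. The 2 calls between hederagenin and oleanolic acid at 10 µM were the only ones in these 8 comparisons without the libraries that stand apart (background 0.3%). The intervals are wide, so compounds that were not called apart are not shown to act alike.

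Across libraries the subunits of the first batch followed each other, NCAPH2 aside. SMC2 and NCAPG had a Pearson r of 0.98 over the 21 libraries, and NCAPH2 had r between -0.37 and -0.07 with the 7 others. These values rest largely on the 3 libraries with 500 µg/mL of the ethanol extract and are given as a description. Over the 75 libraries of the second batch NCAPD2 and NCAPD3 ran closest (r = 0.96), then SMC2 and NCAPG (0.86). The genes most like the mean log2 CPM of the condensin I subunits were HSPA4, TOP2B, WDHD1, HNRNPAB and CPS1 in the first batch (r = 0.992 to 0.993) and ANLN, PEG10, BUB1, KIAA1161 and DHTKD1 in the second (0.923 to 0.962). For the condensin II subunits they were PSMA7, H2AFZ, UQCRQ, TIMM17A and ITGAE in the first batch (0.946 to 0.964) and MCM2, TIMELESS, EARS2, ACO1 and PASK in the second (0.877 to 0.906).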

How the data were processed

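Whole-transcriptome libraries of A549 cells were made with a directional kit, per the labels. The authors deposited expected counts per gene for 60675 genes and 96 libraries. The tools named are RSEM 1.3.3, STAR, Trim Galore and FastQC, with GRCh38 as the build, per the submitters' processing notes. The sources used here give no settings, annotation release or use of strand. RSEM divides reads that match several genes among them. The expected counts were rounded and the batches were fitted separately, each with every one of its groups, in edgeR 4.0.16 (R 4.3.3, limma 3.58.1), with TMM factors, filterByExpr and the quasi-likelihood F-test. Benjamini-Hochberg adjustment ran over the 16854 genes of the first batch and the 18324 of the second, with a threshold of 0.05. CPM are computed from the deposited counts with TMM-adjusted totals. The common biological coefficient of variation was 0.0444 for the extract batch and 0.212 for the ingredient batch. There were 68 comparisons. The share of all genes whose groups do not overlap was not computed, so counts of subunits with separate groups have no background. No 2 replicates of a group held identical values (0 of 96 pairs). Totals were 17.9 to 35.6 M counts per library.

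The 8 members and the 6 lists (57 genes, all found) were chosen with earlier results of these data known, so their counts are descriptions and carry no test of their own. From each list up to 4 genes with the smallest p in a comparison are named. Alternatives were DESeq2 1.42.0, no TMM factors, no filter on low counts, only the 2 groups compared, a replicate block, no mitochondrially encoded genes, no libraries that stand apart and leaving out single libraries. A covariate for the mitochondrial share was chosen after seeing the data. The test was checked on simulated data before use. Positions and exon lengths come from GENCODE v29, a release the authors need not have used, and promoters from RefSeq tables of GRCh38.p14.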

Additional observations from a re-analysis of the deposited data

Results flagged for a closer look

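The dose effect of 500 over 20 µg/mL differed between the ethanol extract and the water extract for 7 of the 8 subunits, by a test of that difference in the edgeR fit of the first batch. The difference (ethanol minus water, log2) was -1.05 for SMC4, where the effect was -0.94 with the ethanol extract and 0.11 with the water extract (edgeR, adjusted p = 4.37e-13). It was -0.83 for NCAPG (adjusted p = 1.22e-09), -0.63 for NCAPH (3.27e-08) and -0.58 for SMC2 (1.09e-08), again in edgeR. It was -0.38 for NCAPD3 (3.67e-06), -0.31 for NCAPG2 (0.000166) and -0.28 for NCAPD2 (3.69e-06). NCAPH2, the kleisin of condensin II, had a difference of 0.16 that did not pass (edgeR, adjusted p = 0.397). Of all genes tested, 9278 of 16854 passed the same test, so the subunits share this with much of the transcriptome. In the second batch the same kind of test between ingredients that share the leading digit of the library number gave 0 calls among the subunits in 4 comparisons, the smallest adjusted p being 0.219 for SMC2 (oleanolic acid minus paeoniflorin, -0.44). Without the libraries that stand apart 6 subunits passed in that comparison, all but SMC4 and NCAPH2, from -0.45 for SMC2 (edgeR, adjusted p = 0.00432) to -0.34 for NCAPG2 (adjusted p = 0.0181), with 755 genes called in all, and 0 passed in the other 3.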

How the results depend on the processing

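No subunit changed direction past the threshold under any alternative. The 7 lower calls with 500 µg/mL of the ethanol extract, against vehicle, water extract and lower doses, held in every alternative run, with SMC4 against vehicle between -1.16 and -1.02 and NCAPD2 between -0.28 and -0.16. Counts of calls moved as follows. For extracts against vehicle (13 of 48), library totals without TMM factors gave 23, DESeq2 16, and leaving out 1 library 11 to 15. Ethanol against water extract gave 7 and extract doses 14 to 15 throughout. For ingredients against vehicle (7 of 192), no TMM factors gave 3, no filter 0, only the 2 groups 25, without the libraries that stand apart 25, and leaving out 1 library 0 to 9. For 10 against 0.4 µM (1 of 64), the mitochondrial covariate gave 2, no filter 0, only the 2 groups 6, without the libraries that stand apart 7, and leaving out 1 library 0 to 3. For ingredients sharing a leading digit (2 of 96), DESeq2 gave 4, the covariate 7, no filter 1, only the 2 groups 0, without the libraries that stand apart 10, and leaving out 1 library 1 to 3. For related ingredients (2 of 72), no TMM factors, the covariate, no filter and only the 2 groups each gave 0, and leaving out 1 library 0 to 5. The share of all genes called moved too. Without the libraries that stand apart it rose from 0.943% to 6.48% over the 22 ingredient groups with no subunit call in the full fit. It rose from 4.45% to 21% with 10 µM oleanolic acid, and did not rise with 10 µM gallic acid, left with 1 library. For most other settings that share is not given here, so these counts are not a result about the subunits alone. The cause was not tested. In the second batch 18 libraries were left out in turn and the others were not. The main fit did not use the replicate numbers as pairs, and whether they pair the libraries was not settled. Same-numbered libraries correlated above 0.1 in every pair in 0 of 15 comparisons of the first batch and 2 of 53 of the second. Every library correlated best with its own number in 6 comparisons of the first batch, all between extract groups, and in 6 of the second. With a replicate block the counts were 19 for extracts against vehicle, 7 for ethanol against water, 15 for extract doses, 8 for ingredients against vehicle, 1 for 10 against 0.4 µM, 2 for shared digits and 2 for related ingredients. Without the libraries that stand apart 10 groups kept 3 libraries, 12 kept 2 and 3 kept 1.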
